A study of Mus musculus with 9 samples.

Results

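The genes described here encode 9 subunits of AP-1, a family of dimeric transcription factors. They are Fos, Fosb, Fosl1, Fosl2, Jun, Junb, Jund, Atf3 and Batf3, chosen by symbol, and all 9 were found among the 45706 genes of the deposited table. They were measured by RNA sequencing in satellite cells, the stem cells of skeletal muscle, from wild-type C57Bl6 mice aged 12 to 20 weeks. Cells were freshly isolated from muscle, proliferating after at least 3 days with 20% fetal calf serum and human FGF-2 at 2.5 ng/ml in the medium, or myotubes after 6 further days in 2% horse serum. Each stage has 3 libraries from different animals, 9 in all.

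AP-1 binds DNA as a dimer held together by a leucine zipper. Jun proteins pair with each other or with a Fos protein, whereas Fos proteins need a Jun partner. Fos, Fosb, Jun, Junb and Atf3 are classic immediate early genes, transcribed within minutes of serum, growth factors, stress or tissue handling from factors already present in the cell. Fosl1 and Fosl2, which encode Fra-1 and Fra-2, lack the strong activation domain of Fos and are usually induced later. Jund is expressed in many resting cells, and Atf3 and Batf3 are smaller bZIP proteins that pair with Jun proteins and often repress.

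Values are normalized read counts, gene read counts that the authors scaled between libraries and rounded. Reads assigned to genes were estimated at 12028065 to 24299710 per library, and 1 read was worth 0.747 to 2.18 normalized counts. The 8 satellite cell markers summed to 116284 to 142715 at isolation, 18093 to 22184 in proliferating libraries and 15148 to 15734 in myotubes. Sdc4 was the largest part at isolation, with 87979, 65072 and 59578. Pax7, the factor that defines the lineage, was at 15700, 11694 and 12892 at isolation, and Myog, the factor of differentiating myoblasts, at 37811, 33789 and 39734 in myotubes. Proliferating replicate 1 stood apart, with Myog at 2179 against 9530 and 8749 in the other proliferating libraries. Freshly isolated replicate 1 also stood apart, with Myog at 1257 against 62 and 218. Each log2 change, on a scale of log2(value + 1), is followed by its standard error (±). The adjusted p-values are limma's, corrected by the Benjamini-Hochberg method for all 17291 genes tested. A gene was called at an adjusted p below 0.05. In proliferating against freshly isolated cells, 6 of the 8 satellite cell markers were called lower and 1 higher. In myotubes against freshly isolated cells, 6 were called lower and 2 were not called. Of all genes tested, 35.7% were lower and 37.6% higher in the first comparison, and 37.3% and 40.2% in the second.

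Proliferating cells held far less of every tested AP-1 subunit transcript than freshly isolated cells. Of the 9 genes, 8 passed the filter on low values and were tested. Fosb, at 18 or less in the cultured libraries, passed only through its freshly isolated libraries, so the filter set its direction. Each of the 8 was lower in proliferating cells and none was higher, while 35.7% of all genes tested were called lower, 37.6% higher and 73.3% in either direction. With upper-quartile scaling the calls over all genes were 7183 lower and 5421 higher, against 6172 and 6507 as deposited, and all 8 subunits were again called lower. The median log2 change of the 8 was -4.46, against 0.07 over all genes tested. The falls ranged from 3.46-fold for Fosl1 to 6023-fold for Fosb, and for each of the 8 the libraries of the 2 stages did not overlap, which held for 36.3% of all genes tested in that direction and 37.7% in the other. In bulk samples fewer cells with a transcript and less of it per cell cannot be told apart.

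**Figure D1:**
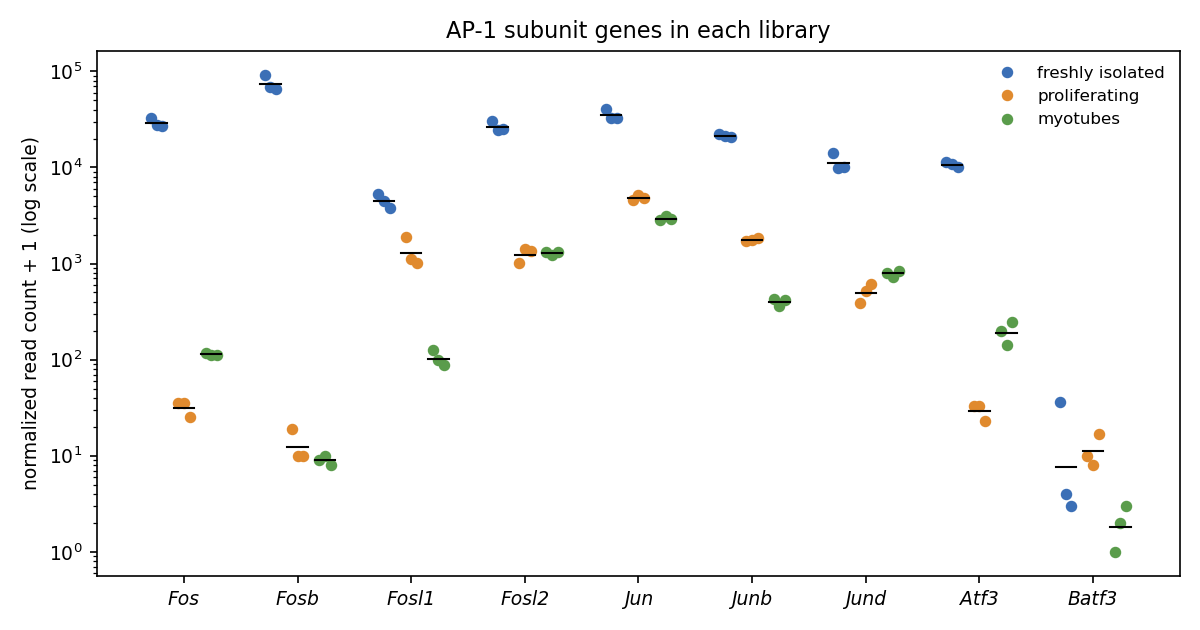
Normalized read count + 1 of each AP-1 subunit gene in each library on a log scale (points), with the mean of the log values of each stage (lines). All freshly isolated points lie above those of both cultured stages except for Batf3, and Fosb falls from 65159 or more to 18 or less.

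The inducible Fos genes fell most. Fosb (ENSMUSG00000003545, chromosome 7, 19302696 to 19310051 on GRCm38) had 92566, 68836 and 65159 at isolation, 18, 9 and 9 in the proliferating libraries and 8, 9 and 7 in myotubes. It was abundant at isolation and down to an estimated 7 to 22 reads per library afterwards. Its log2 change from freshly isolated to proliferating cells was -12.56 ± 0.26 (adjusted p = 2.82e-10). Fos (ENSMUSG00000021250, chromosome 12, 85473890 to 85477273) had 32725, 27388 and 27292, then 34, 34 and 24, and in myotubes 116, 112 and 110. The 3 stages were fully separated, with proliferating cells lowest. The fall of Fos was 928-fold (log2 change -9.86 ± 0.15, adjusted p = 7.95e-11). Atf3 (ENSMUSG00000026628, chromosome 1, 191170296 to 191218039), a stress-induced bZIP factor, had 11389, 10775 and 10041 at isolation. It had 32, 32 and 22 in proliferating cells and 197, 142 and 247 in myotubes, so its order over the stages was that of Fos. Its fall into proliferation was 366-fold (log2 change -8.52 ± 0.21, adjusted p = 6.58e-10).

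The bases before the start of the 3 genes that fell most, and of Jun, are shown because such stretches of immediate early genes carry sites of their rapid induction. RefSeq gives a promoter for 8 of the 9 genes (GRCm38.p6). Each line is the 250 bases upstream of the RefSeq start, 5′ to 3′ on the gene's strand, and capitals mark TGACG on either strand, the core of the cAMP response element, or TGACATCA, a variant of the AP-1 site.
Fosb: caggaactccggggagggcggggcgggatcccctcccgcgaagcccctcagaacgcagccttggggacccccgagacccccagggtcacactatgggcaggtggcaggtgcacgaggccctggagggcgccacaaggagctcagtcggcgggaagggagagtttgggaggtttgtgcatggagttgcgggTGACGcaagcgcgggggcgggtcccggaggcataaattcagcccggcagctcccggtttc
Fos: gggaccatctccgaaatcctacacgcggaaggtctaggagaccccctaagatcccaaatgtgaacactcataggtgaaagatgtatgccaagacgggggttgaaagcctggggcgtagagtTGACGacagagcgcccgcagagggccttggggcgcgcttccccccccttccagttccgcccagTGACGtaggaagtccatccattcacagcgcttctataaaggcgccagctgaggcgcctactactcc
Atf3: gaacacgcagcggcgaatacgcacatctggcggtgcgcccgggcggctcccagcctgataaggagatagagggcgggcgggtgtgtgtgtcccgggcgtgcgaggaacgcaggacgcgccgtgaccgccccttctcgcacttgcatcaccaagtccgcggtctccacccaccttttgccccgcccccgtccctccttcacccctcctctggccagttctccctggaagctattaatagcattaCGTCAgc
Jun: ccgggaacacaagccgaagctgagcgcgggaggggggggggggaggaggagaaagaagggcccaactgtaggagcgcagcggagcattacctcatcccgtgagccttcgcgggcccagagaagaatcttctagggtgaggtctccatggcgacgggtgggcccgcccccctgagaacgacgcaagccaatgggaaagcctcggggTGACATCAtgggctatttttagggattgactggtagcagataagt
These stretches lie at chr7:19310046-19310295 (minus strand), chr12:85473640-85473889 (plus), chr1:191183334-191183583 (minus) and chr4:95052223-95052472 (minus). The Atf3 stretch lies within the GENCODE gene, whose outermost start is 34706 bases further upstream. The RefSeq starts used for Jund, Fosl2 and Batf3 lie 1210, 671 and 567 bases from their GENCODE starts. The windows of these genes therefore do not end at the GENCODE starts. TGACG was found in Fos, Fosb, Junb and Atf3, 4 of the 8 promoters, and in 17.8% of all 32851 RefSeq promoters cut to the same length. In Fosb it began 60 bases and in Fos 66 and 129 bases before the start, and in Atf3 the reverse complement began 7 bases before it. TGACATCA was found only in Jun among the 8, beginning 45 bases before the start, and in 2.93% of all promoters. The palindromic AP-1 site TGANTCA (6.75% of all), the full element TGACGTCA (1.55%), which contains TGACG, and the CArG box bound by serum response factor (1.47%) were not in these windows of any of the 8, on either strand. A match describes the letters and was not tested as a binding site. Bases further than 250 upstream of the RefSeq start were not searched, so an absence holds for these windows only.

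The Fra genes fell less, and by different amounts. Fosl1 (ENSMUSG00000024912, chromosome 19, 5447547 to 5455946) had 5334, 4424 and 3799 in freshly isolated cells, 1900, 1118 and 1017 in proliferating cells and 124, 98 and 86 in myotubes. It stepped down at each stage without overlap. The first step was 3.46-fold (log2 change -1.79 ± 0.24, adjusted p = 5.8e-05), the smallest fall among the 8 tested. Fosl2 (ENSMUSG00000029135, chromosome 5, 32135801 to 32157842) had 30350, 24610 and 25415, then 1011, 1407 and 1337, and in myotubes 1306, 1230 and 1320. It fell once, 21.5-fold (log2 change -4.43 ± 0.13, adjusted p = 1.99e-09), and the values of proliferating cells and myotubes overlapped.

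The Jun genes kept more of their transcript than Fos and Fosb. Jun (ENSMUSG00000052684, chromosome 4, 95049034 to 95052222) had 40351, 32460 and 32732 at isolation, 4574, 5168 and 4763 in proliferating cells and 2840, 3106 and 2884 in myotubes, again without overlap. Its fall into proliferation was 7.25-fold (log2 change -2.86 ± 0.10, adjusted p = 6.92e-09). Junb (ENSMUSG00000052837, chromosome 8, 84974484 to 84978718), which often opposes Jun in growth control, had 22568, 21039 and 20767, then 1712, 1767 and 1844, and last 428, 362 and 415. The replicates of each stage lay close together, and the first fall was 12.1-fold (log2 change -3.60 ± 0.09, adjusted p = 6.58e-10). Jund (ENSMUSG00000071076, chromosome 8, 70698949 to 70700616) had 14186, 9815 and 10124, then 389, 516 and 615, and in myotubes 798, 729 and 841. Proliferating cells were lowest, 22.5-fold below freshly isolated cells (log2 change -4.49 ± 0.18, adjusted p = 1.4e-08).

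Batf3 (ENSMUSG00000026630, chromosome 1, 191097847 to 191108945), a factor best known from dendritic cells, was near the floor. It had 35, 3 and 2 in freshly isolated, 9, 7 and 16 in proliferating and 0, 1 and 2 in myotube libraries. The value of 35 in freshly isolated replicate 1 stands for an estimated 16 reads and the values of 3 and 2 for 3 and 2 reads. Batf3 did not reach 10 in 3 libraries and was not tested. Without that filter, no adjusted p of its changes was under 0.05 (limma, 0.665 into proliferation, 0.0559 into myotubes and 0.091 over both steps).

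Strand was not stated for the counting, and 5 of the subunit genes overlap a gene on the opposite strand. Over whole gene spans, introns included, Fosl1 shares 2767 bases with Ccdc85b, Jund 919 with Gm11175 and Jun 689 with the antisense RNA gene Junos. Junb shares 351 with Prdx2 and Atf3 108 with Gm24748. Fosl1 has 2033 bases of exon in all, so its shared bases are not all exonic. The values of these subunits are uncertain because of the overlaps, to an extent that was not measured. Gm11175 was at 0 in all 9 libraries, and Gm24748 reached at most 2. Ccdc85b had 508 to 756 in freshly isolated, 162 to 247 in proliferating and 204 to 247 in myotube libraries. Prdx2 went the other way from Junb, with 851 to 996 at isolation, 1800 to 1824 in proliferating cells and 2992 to 3468 in myotubes. Junos was at 92 to 174 at isolation and at 33 to 71 later.

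Markers of other cell types moved with this comparison too. The summed value of 6 fibroblast markers was 7684 to 9203 in freshly isolated and 21 to 34 in proliferating libraries, where Cxcl14, Dpt and Lum were at 0. Of the 5 tested, 4 were lower and 1 higher. Pdgfra, the defining receptor of these cells, had only 4, 5 and 9 at isolation. The 6 leukocyte markers summed to 551 to 649 and then 57 to 76, with 1 of 2 tested lower and Adgre1 at 0 in both stages. The 6 endothelial markers summed to 105 to 227 and then 54 to 98, with 2 of 3 tested lower and Emcn at 0 in proliferating cells. Schwann cell markers summed to 197 to 303 and 89 to 95, with 3 of 4 lower. Pericyte or smooth muscle markers went from 2340 to 3789 up to 8644 to 20025, with 2 of 6 higher and 2 lower. Acta2 made up most of these sums, with 3144, 1567 and 2029 and then 6866, 18161 and 14036. The 3 erythroid markers summed to 15 to 23 and 50 to 96, with the 1 tested, Alas2, higher and both globin genes at 0 in proliferating cells. The part of other cells in the subunit values was not tested.

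Freshly isolated replicate 1 was the highest of its stage for each of the 8 tested subunits, whereas it was the highest for 39.7% of all genes tested. Its log2 value lay a median of 0.29 above the mean of the other 2 libraries for the subunits and 0.02 below it for all genes (median -0.02). The falls without it were of like size, with log2 changes of -12.40 for Fosb and -1.66 for Fosl1. The normalized counts of freshly isolated replicate 1 summed to 26209153 over all genes, against 20379702 and 20111379 in replicates 2 and 3. Its estimated reads were fewer, at 12028065 against 19353943 and 19282243. In it 1 read was worth 2.18 normalized counts, against 1.05 and 1.04. The part of this larger total in its higher subunit values was not tested.

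From proliferating cells to myotubes the subunits parted. Fos, Atf3 and Jund rose, Fosl1, Junb and Jun fell, and Fosb and Fosl2 were not called. That is 3 higher and 3 lower of 8 tested, against 28.6% and 25.5% of all genes tested. With upper-quartile scaling 4150 genes were higher and 5204 lower, against 4951 and 4402 as deposited, with the same 3 and 3 subunits. The median log2 change of the 8 was -0.21, against 0.04 over all genes tested. For each of the 6 called genes the libraries of the 2 stages did not overlap, in 3 upwards (37.3% of all genes tested) and in 3 downwards (33.5%).

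**Figure D2:**
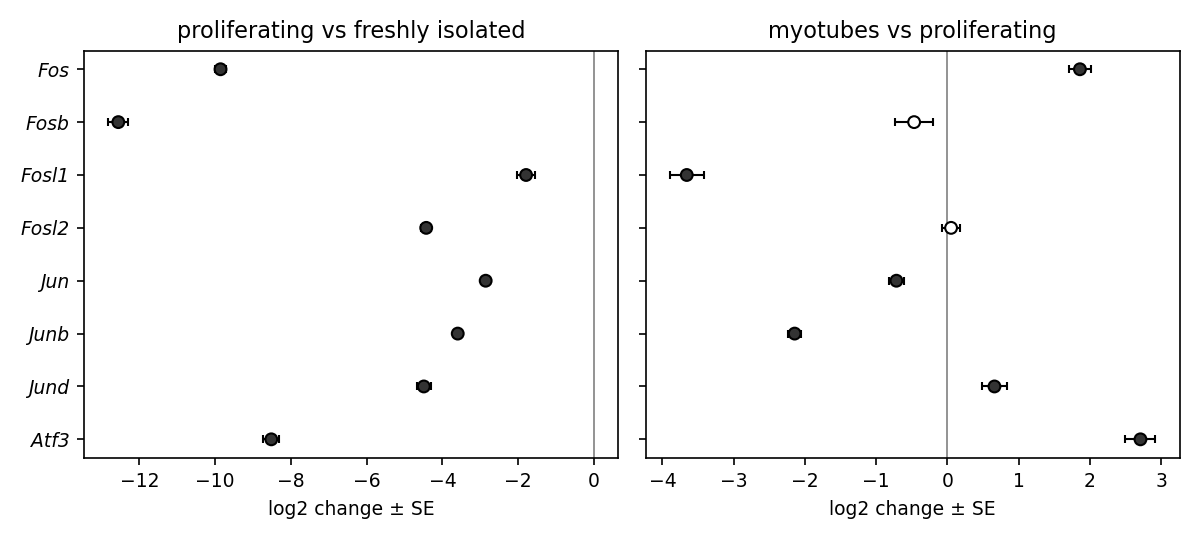
Log2 change ± SE (limma, 3 libraries per stage) of the 8 tested AP-1 subunit genes from freshly isolated to proliferating cells (left) and from proliferating cells to myotubes (right), with filled points for adjusted p below 0.05. On the left all 8 are below 0, and on the right Fos, Atf3 and Jund lie above 0 and Fosl1, Junb and Jun below it.

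Atf3 rose 6.54-fold (log2 change 2.71 ± 0.21, adjusted p = 4.45e-06) and Fos 3.63-fold (1.86 ± 0.15, adjusted p = 5.35e-06). Both stayed far under their level at isolation. Jund rose 1.58-fold (0.66 ± 0.18, adjusted p = 0.0109), with a log2 change of 0.48 (adjusted p = 0.0402) without proliferating replicate 1, the library in which Jund was lowest.

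Fosl1 had the largest change of the 8 in this step, a 12.6-fold fall (log2 change -3.66 ± 0.24, adjusted p = 1.8e-06). Within the proliferating libraries it was highest, at 1900, in replicate 1, where Myog was lowest at 2179 and the embryonic myosin gene Myh3 was at 3055 against 23038 and 15385. The same library held the lowest Fosl2, Jun, Junb and Jund of its stage. Without it the log2 change of Fosl1 was -3.38 (adjusted p = 4e-06). Junb fell 4.42-fold (-2.14 ± 0.09, adjusted p = 2.3e-07) and Jun 1.64-fold (-0.72 ± 0.10, adjusted p = 0.000221).

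Fosl2 had a log2 change of 0.05 ± 0.13 (adjusted p = 0.761), and Fosb of -0.47 ± 0.26 (adjusted p = 0.159) at values of 7 to 18. The sign of the Fosl2 value changed with the scaling and without proliferating replicate 1, so no direction is given for it.

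Markers moved in this step as well. The 7 genes of committed myoblasts and myotubes summed to 29072 to 73808 in proliferating libraries and 539210 to 640733 in myotubes, with 6 higher and 1 lower. The 6 leukocyte markers summed to 57 to 76 and then 238 to 258, with 1 of 2 tested higher and 1 lower. The 6 fibroblast markers summed to 21 to 34 and then 192 to 495, with 1 of 5 tested higher, 1 lower and Cxcl14 at 0 in both stages. Pericyte or smooth muscle markers went from 8644 to 20025 up to 60983 to 62179, with 3 of 6 higher and 1 lower. Acta2 made up most of these sums, with 6866, 18161 and 14036 and then 61639, 60374 and 60888. Cspg4 went the other way, from 1683, 1625 and 2123 to 162, 148 and 177. Endothelial markers went down to 20 to 28, with 2 of 3 tested lower and Emcn at 0, and none of 4 Schwann cell markers was called. Erythroid markers went from 50 to 96 down to 3 to 10, with the 1 tested lower and both globin genes at 0 in both stages. The part of these cells in the subunit values was not tested.

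Myotubes against freshly isolated cells share their libraries with both comparisons above. All 8 tested subunits were lower and none higher, while 37.3% of all genes tested were called lower, 40.2% higher and 77.6% in either direction. Fosb is again among the 8 only through its freshly isolated libraries. The libraries did not overlap for any of the 8, as for 38.0% of all genes tested downwards and 40.7% upwards. The median log2 change was -5.59, against 0.10 over all genes tested. With upper-quartile scaling 5534 genes were higher and 7837 lower in this comparison, against 6959 and 6457 with the values as deposited, and the 8 subunits were called lower under both. The falls ranged from 11.9-fold for Jun (log2 change -3.57 ± 0.10, adjusted p = 1.57e-09) to 8324-fold for Fosb (-13.02 ± 0.26, adjusted p = 1.73e-10). Fosl1 was 43.7-fold lower (-5.45 ± 0.24) and Junb 53.4-fold lower (-5.74 ± 0.09), so both ended with a larger net fall than Jund at 14.2-fold (-3.83 ± 0.18) and Fosl2 at 20.7-fold (-4.37 ± 0.13).

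Levels of different genes were compared per kilobase of exon, using the union of annotated exons. In freshly isolated cells Fos (12387 ± 1322 normalized counts per kb, SD, n = 3), Fosb (12097 ± 2383) and Jun (11032 ± 1405) led, and their libraries overlapped. Junb (9326 ± 422) and Jund (6820 ± 1462) followed without overlap between them. Atf3 was at 4984 ± 313, Fosl2 at 2768 ± 321 and Fosl1 at 2223 ± 380, the last 2 overlapping. In proliferating cells Jun led (1516 ± 95.2), then Junb (771 ± 28.8), which overlapped Fosl1 (662 ± 238), Jund (304 ± 67.9) and Fosl2 (129 ± 21.8). Atf3 (13.3 ± 2.68) and Fos (13.0 ± 2.45) overlapped each other, Batf3 (6.68 ± 2.96) lay just below both without overlap, and Fosb was lowest at 1.92 ± 0.83. In myotubes the order was Jun (923 ± 44.7), Jund (473 ± 33.9), Junb (175 ± 15.2), Fosl2 (133 ± 5.0), Atf3 (90.7 ± 24.4), Fosl1 (50.5 ± 9.55) and Fos (47.9 ± 1.3), the last 2 overlapping, with Fosb (1.28 ± 0.16) and Batf3 (0.63 ± 0.63) lowest and overlapping. With the length of the longest transcript in place of the exon union, Fosb ranked above Fos and Junb above Jun at isolation. With that length Batf3 in proliferating cells, at 6.31 to 14.4 per kb, overlapped Fos (11.4 to 16.1) and Atf3 (11.1 to 16.1). Its values there rest on an estimated 9 to 18 reads. Jun thus ranked first in both cultured stages, and Jund passed Junb in myotubes.

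The makeup of the Fos family changed at each stage. Fos and Fosb together made up most of its summed level per kb at isolation, with shares of 42.2% ± 1.72 and 40.9% ± 1.89 (SD, n = 3), against 7.53% ± 0.46 for Fosl1 and 9.42% ± 0.42 for Fosl2. In proliferating cells Fosl1 took 80.9% ± 6.54, with 88.5% in replicate 1 and 77.3% and 77.0% in the others, and Fosl2 17.2% ± 6.34. Fos then had 1.66% ± 0.34 and Fosb 0.23% ± 0.04. In myotubes Fosl2 led with 57.2% ± 2.77, followed by Fosl1 with 21.6% ± 3.04 and Fos with 20.6% ± 0.61, whose libraries overlapped, and Fosb with 0.55% ± 0.08. The leading gene therefore went from Fos and Fosb to Fosl1 and then to Fosl2, in every library of each stage. Without division by length, Fosl1 and Fosl2 had 50.1% and 48.3% in proliferating cells, and Fosl1 led only in replicate 1.

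In the Jun family Jun had the highest mean share at each stage, with 40.6% ± 0.25, 58.5% ± 2.16 and 58.8% ± 2.90 in the order of the stages. With the longest transcript as the length, Junb had 40.1% and Jun 37.1% at isolation. Junb went from 34.5% ± 2.48 to 29.8% ± 1.22 and 11.1% ± 0.99, and Jund from 24.9% ± 2.23 to 11.7% ± 2.09 and 30.1% ± 2.01. In each library, Jund per kb was 0.64 to 0.87 times Junb at isolation, 0.31 to 0.46 times in proliferating cells and 2.57 to 2.80 times in myotubes. The summed Fos family was 1.08 ± 0.03 times the summed Jun family at isolation, 0.32 ± 0.11 times in proliferating cells (0.44 in replicate 1, and 0.26 and 0.24 in the others) and 0.15 ± 0.01 times in myotubes. These 3 ranges did not overlap. Without division by length the ratio was 0.37 in proliferating cells and 0.37 in myotubes, so the second step of this ratio rests on the gene lengths, while the first was there too, from 1.99 at isolation. An exact permutation test of 3 against 3 libraries cannot give a two-sided p below 0.1, which 22 of the 24 tests of shares and ratios reached (adjusted p = 0.109 over the 24). The exceptions were the share of Fosl2 between freshly isolated and proliferating cells (p = 0.2 by the exact test) and that of Jun between proliferating cells and myotubes (p = 1 by the exact test).

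**Figure D3:**
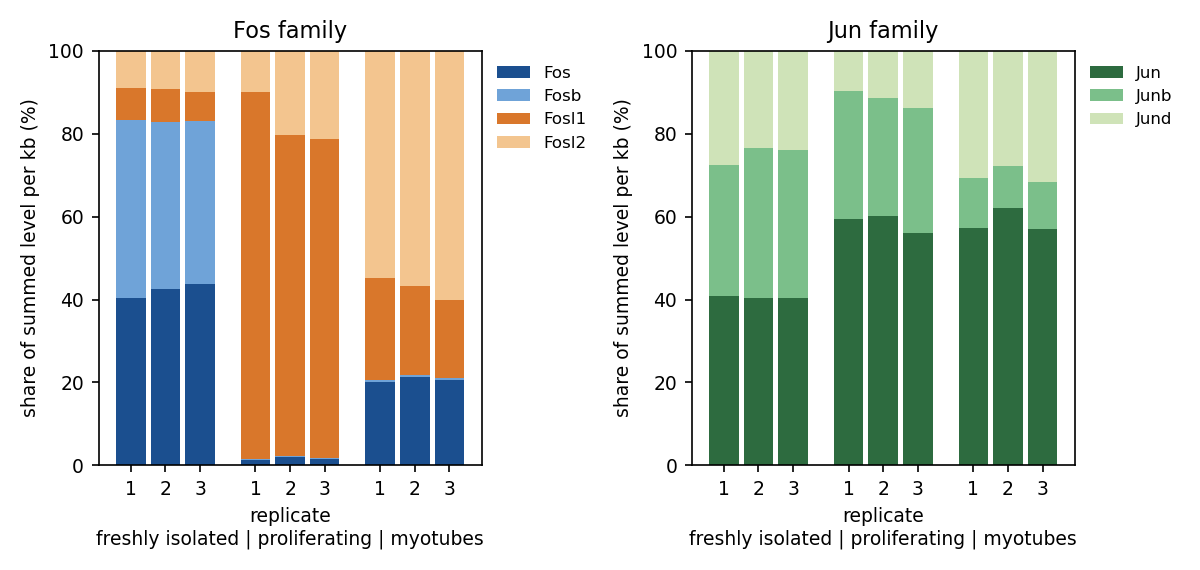
Share of each gene in the summed level per kilobase of exon of the Fos family (left) and of the Jun family (right), in percent, one bar per library. Fos fills 40.3 to 43.7% and Fosb 39.3 to 43.0% of the bars at isolation, Fosl1 77.0 to 88.5% in proliferating cells and Fosl2 54.7 to 60.2% in myotubes.

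The subunits were also compared by the shape of their profiles over the 9 libraries, as the root mean square difference of log2 values after each gene's own mean was removed. Fosl2 and Jund were the closest pair of subunits (0.29 log2 units), while Fosl1 was closest to Junb (0.84) and Fos to Atf3 (0.92). The distances describe profiles that the 3 stages shape, and no test was made. Other tested genes were ranked if their mean was at least 50. Pseudogenes and genes with symbols of numbered models, clones, microRNAs, small nucleolar RNAs or mitochondrial genes were left out, and some may lie closer. Of the genes ranked, those nearest to Fosl2 were Dnajb1, a heat shock cochaperone, at 0.16, Irf1, an interferon-regulated transcription factor, at 0.21, and Vsig10 at 0.21. Nearest to Jund were Cry2, a circadian clock repressor, at 0.19, Dedd2 at 0.20 and the class I histocompatibility gene H2-K1 at 0.22. Nearest to Fosl1 were Adarb1, an RNA editing enzyme, at 0.36, Man1a, a mannosidase of glycan processing, at 0.37, and the immediate early gene Arc at 0.46. Arc had 824 to 1320, then 138 to 170, then 16 to 21. The gene nearest to Fosb, the heat shock gene Hspa1a, whose reads may be split with its near-identical copy, was at 1.03, and the matrix genes Dpt and Tnxb followed at 1.11.

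Other genes of the pathway were taken from lists that were chosen with earlier results of these data known. All 19 other immediate early genes fell from isolation to proliferation, beside 35.7% of all genes tested (median log2 change -4.94). Nr4a3, an orphan nuclear receptor, fell from 7772 ± 986 to 15.3 ± 7.02 (log2 change -8.99 ± 0.36), Egr2, a zinc finger factor, from 2205 ± 315 to 5.67 ± 3.79, and Nr4a1 from 15376 ± 3287 to 59 ± 11.4. In myotubes 10 of the 19 were higher and 5 lower than in proliferating cells, beside 28.6% and 25.5% of all genes tested (median 0.41). Nr4a3 rose to 149 ± 57.5, whereas Nr4a2 fell from 194 ± 72.5 to 22.7 ± 6.51 and Arc from 154 ± 16 to 19.3 ± 2.89.

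**Figure D4:**
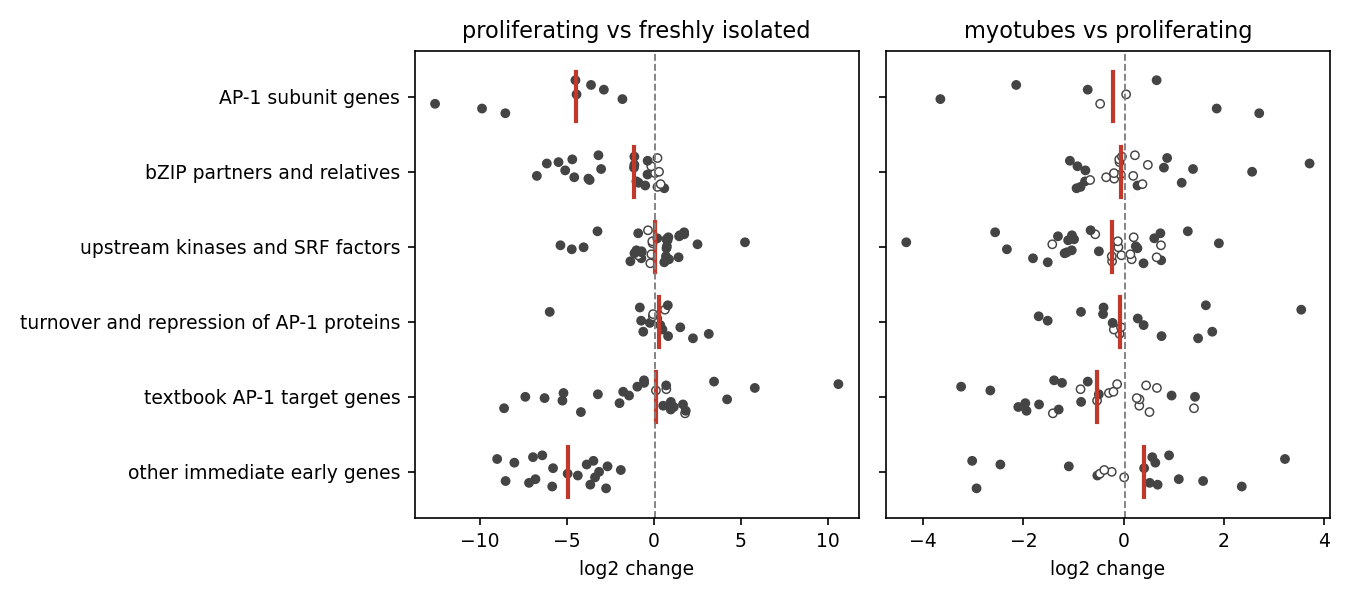
Log2 change of each tested gene of the AP-1 subunits and of 5 lists of related genes, from freshly isolated to proliferating cells (left) and from proliferating cells to myotubes (right), filled where adjusted p was below 0.05, with the list median in red and the median of all genes tested as a dashed line. The subunits and the other immediate early genes have medians of -4.46 and -4.94 on the left, and the other lists have medians between -1.10 and 0.30.

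Relatives and partners of AP-1 with a bZIP domain were called lower in 18 and higher in 1 of 25 tested at the first step, beside 35.7% and 37.6% of all genes tested (median -1.10). Without freshly isolated replicate 1, 4 were called higher, and without freshly isolated replicate 2, 2 were. Cebpd, a CCAAT-binding factor induced by inflammation, fell from 6844 ± 788 to 65 ± 12.8 (log2 change -6.71 ± 0.16), and the small Maf gene Maff 44.1-fold from 11061 ± 1900. Batf, among the 18, passed the filter only through its freshly isolated libraries, so the filter set its direction. The gene called higher was Atf1, a CREB relative (log2 change 0.61). From proliferating cells to myotubes 7 were higher and 6 lower, beside 28.6% and 25.5% of all genes tested (median -0.06). Creb3, a membrane-bound factor of the secretory pathway, rose 5.93-fold from 494 ± 127 to 2891 ± 424, and Crem, a cAMP response factor, 2.62-fold.

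Of 34 kinases and serum response factors upstream of AP-1, 17 were higher and 11 lower in proliferating cells, beside 37.6% and 35.7% of all genes tested (median 0.08). In myotubes 8 were higher and 14 lower than in proliferating cells, beside 28.6% and 25.5% (median -0.23), and 5 were higher without proliferating replicate 3 or without myotube replicate 3. Mapk10, a JNK kinase of nerve and heart, fell from 375 ± 39.2 to 9 ± 4.58 (log2 change -5.35 ± 0.40) and Map3k5, a stress kinase, from 2309 ± 201 to 87.7 ± 5.51, and the latter fell again to 16.7 ± 1.53 in myotubes. Mapk13, a p38 kinase, rose from 1.33 ± 1.15 to 82 ± 31.5 and fell to 3 ± 1. Mapk13 passed the filter on low values only through its proliferating libraries, so the filter set both directions. Rps6ka4, a kinase activated by MAP kinases, fell 5.91-fold into myotubes. Factors that degrade or repress AP-1 proteins numbered 16, with 7 higher and 5 lower at the first step (median 0.30) and 7 higher and 6 lower at the second (median -0.06). The shares over all genes tested were 37.6% and 35.7%, then 28.6% and 25.5%. Trib1, a pseudokinase that recruits the ligase COP1, fell 62.6-fold from 21636 ± 1651 to 346 ± 42.5 at the first step, while Det1 and Cops5 rose. At the second step Fbxw7, a ligase subunit for phosphorylated Jun, went up from 492 ± 35.6 to 1683 ± 116 (3.42-fold, adjusted p = 3.91e-06), Trib2 rose from 9 ± 1 to 117 ± 20.4, and the ligase gene Smurf1 fell 3.24-fold. Trib2 passed the filter only through its myotube libraries, so the filter set its direction.

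Genes cited in textbooks as AP-1 targets were called in both directions at the first step. Of 27 tested, 11 were higher and 13 lower in proliferating cells, beside 37.6% and 35.7% of all genes tested, and the median was 0.13. Spp1, osteopontin, had 26, 1 and 2 at isolation and 11198, 7040 and 7970 in proliferating cells. Loxl2, a collagen crosslinking enzyme, fell from 1428 ± 209 to 8.33 ± 4.51, and Dcn, a matrix proteoglycan gene that is also a fibroblast product, from 750 ± 310 to 1 ± 1. Dcn and Il6, both among the 13, passed the filter only through their freshly isolated libraries, so the filter set their direction. From proliferating cells to myotubes 12 were lower and 2 higher (median -0.53), beside 25.5% and 28.6% of all genes tested. Without freshly isolated replicate 1 or without myotube replicate 2, 4 were higher. Plaur, the urokinase receptor, fell 6.32-fold from 720 ± 116 to 113 ± 14 (log2 change -2.66 ± 0.23, adjusted p = 8.81e-06), and Ezr, which links membrane to actin, 4.29-fold. Whether any of these genes was bound by AP-1 was not measured.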

How the data were processed

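RNA was measured in 9 libraries, 3 per stage. Per the labels' protocols, 100 ng of total RNA was depleted of ribosomal RNA and made into stranded libraries. Per the submitters' processing notes, STAR 2.4.0a was the aligner, mm10 (GRCm38) the genome and featureCounts 1.4.5-p1 of Subread the read counter. The authors deposited score values, which are gene read counts, scaled across libraries and then rounded. Neither the strand setting nor the scaling tool is given in the sources used here. The step between low values gave the value of 1 read and the depth. The columns beginning with Q were assigned to freshly isolated cells by elimination.

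Genes at 10 or more in 3 libraries were kept (17291 of 45706). A gene could be kept only through the stage in which it was high, as Fosb was. Log2(value + 1) was fitted with limma 3.58.1 in R 4.3.3, the 3 stages in 1 model with a mean-variance trend. Exon lengths and positions came from GENCODE vM21, and figures and shares from Python 3.11.15. The fit was tested on simulated data. Genes named are the 9 subunits, up to 3 called genes of each list and step with the largest change, marker genes, and the 3 genes nearest in profile to Fosb, Fosl1, Fosl2 and Jund. Atf1, the 1 list gene called higher, was named after its value was seen, as were Ccdc85b, Prdx2 and other overlapping genes. The subunits and lists were chosen with earlier results of these data known. Some genes that this rule names are not reported here. Replicate numbers were not treated as pairs. Alternatives were other pseudocounts, filters, scalings, no trend, only the 6 libraries compared, a replicate block, each library left out and other gene lengths.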

Additional observations from a re-analysis of the deposited data

How the results depend on the processing

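The 22 called log2 changes of the subunits kept direction and call in all 440 values under 20 alternatives, and the counts of subunits called (8 lower, 3 higher and 3 lower, 8 lower) were the same throughout. With a pseudocount of 8 the log2 change of Fosb became -11.90 into proliferation and -12.19 from isolation to myotubes. The change of Fosl2 into myotubes, which was not called, was -0.12 with upper-quartile scaling, -0.0943 without freshly isolated 1 and proliferating 1 together, and -0.0943 (without proliferating 1) to 0.14 when single libraries were left out. Upper-quartile scaling moved the median log2 change of all genes by -0.27, -0.17 and -0.44 in the 3 comparisons in the order of the report.

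Small list counts moved. The bZIP relatives higher in proliferating cells numbered 2 with quantile normalization, 4 without freshly isolated 1 and proliferating 1 together, and 1 to 4 when single libraries were left out, with 4 without freshly isolated 1. Upstream kinases higher in myotubes than in proliferating cells numbered 5 with upper-quartile scaling, 5 without the trend, and 5 to 9 when single libraries were left out, with 5 without proliferating 3 or myotubes 3. Textbook targets higher in that step numbered 5 with only the 6 libraries compared, 5 without freshly isolated 1 and proliferating 1 together, and 2 to 4 when single libraries were left out, with 4 without freshly isolated 1 or myotubes 2. The cause was not tested.

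A replicate block left the subunit counts at 8 lower, 3 higher and 3 lower, and 8 lower, and called 6446 higher and 6117 lower of all genes into proliferation. Same-numbered libraries had correlations of deviations between -0.03 and 0.03, and differently numbered ones between -0.06 and 0.06. With 3 libraries per stage these values cannot show whether the numbers mark pairs.

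Shares depend on gene length. With the longest transcript, in the order isolation, proliferation, myotubes where they moved by more than 1 SD, Fos had 34.4% at isolation and 17.4% in myotubes, Fosb 49.3%, 0.33% and 0.69%, Fosl1 6.01% at isolation and 17.9% in myotubes, and Fosl2 10.2% and 64.0%. Jun then had 37.1% and 54.2% in the first 2 stages, Junb 40.1%, 35.1% and 13.7%, and the Fos to Jun ratio was 1.35 at isolation and 0.19 in myotubes. With no division by length Fos had 21.5%, 1.16% and 7.47%, Fosb 55.3% and 0.45% in the first 2 stages, Fosl1 3.32%, 50.1% and 6.80%, and Fosl2 19.8%, 48.3% and 85.2%. Jun then had 51.7%, 67.9% and 71.2%, Junb 31.7%, 25.0% and 9.73%, Jund 16.6%, 7.09% and 19.1%, and the ratio was 1.99, 0.37 and 0.37. Fosb after isolation and Batf3 throughout rest on few reads, and their changes there are the least precise.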
